A study of Homo sapiens with 4 samples.

Results

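Mismatch repair genes were examined in a derivative of H1299 in which mouse p53 can be switched on. H1299 is an established human line from a non-small cell lung cancer and makes no p53 of its own; the derivative holds a tetracycline-inducible p53 gene. The set was defined by name as MSH3, MSH6, MLH3, PMS1, PMS2 and EXO1, and all 6 were measured among 18417 genes. Each gene was read from its brightest probe set among those annotated to that gene alone; here each of the 6 had a single such probe set. The uninduced group was the construct line before doxycycline, and the induced group was the same line after 24 h in doxycycline at 0.5 µg/mL, the drug that turns the construct on. Both groups carried the construct and grew in medium with 10% tet-free serum. Each group had 2 arrays, which the labels call technical replicates, so p-values measure only the spread between these arrays and their number limits the precision. The labels describe 1 stable line and name no doxycycline-treated line without the construct, so drug and p53 cannot be told apart.

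Mismatch repair removes bases that the replicative polymerases misincorporate and small loops left by slippage at repeats. The MutS homologs MSH6 and MSH3 recognise the error: MSH6 complexes bind single-base mismatches and small loops, and MSH3 complexes bind larger loops. MutL homologs, among them PMS2, PMS1 and MLH3, are then recruited, and PMS2 carries the endonuclease that nicks the new strand. The exonuclease EXO1 enters at the nick and removes the stretch that holds the error, after which polymerase delta fills the gap and a ligase seals it. The pathway acts behind the replication fork, and several of its genes are expressed most in dividing cells.

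The start regions of the 6 genes are shown first because the genes that fell and those that rose can be compared there base by base. Sequences are from RefSeq's promoter table (GRCh38.p14), which matched all 6 genes. Each is printed from 130 bases before the annotated start through 20 bases from the start on, in the direction of transcription. EXO1 lies at chr1:241848074-241848223 on the plus strand, MSH6 at chr2:47783015-47783164 (plus) and MSH3 at chr5:80654522-80654671 (plus). PMS2 lies at chr7:6009087-6009236 on the minus strand, PMS1 at chr2:189784320-189784469 (plus) and MLH3 at chr14:75051448-75051597 (minus). Capitals mark matches to E2F words, defined below.
EXO1: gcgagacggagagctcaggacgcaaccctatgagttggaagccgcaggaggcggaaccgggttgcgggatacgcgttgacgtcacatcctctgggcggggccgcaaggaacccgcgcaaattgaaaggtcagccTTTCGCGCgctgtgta
MSH6: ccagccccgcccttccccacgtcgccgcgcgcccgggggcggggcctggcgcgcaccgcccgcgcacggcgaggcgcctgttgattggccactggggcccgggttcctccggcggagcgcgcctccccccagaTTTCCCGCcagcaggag
MSH3: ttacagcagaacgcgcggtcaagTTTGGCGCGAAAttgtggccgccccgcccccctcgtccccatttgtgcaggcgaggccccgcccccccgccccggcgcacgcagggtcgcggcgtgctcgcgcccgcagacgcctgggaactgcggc
PMS2: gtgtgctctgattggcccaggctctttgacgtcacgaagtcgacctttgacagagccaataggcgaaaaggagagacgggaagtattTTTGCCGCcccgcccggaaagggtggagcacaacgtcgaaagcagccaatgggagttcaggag
PMS1: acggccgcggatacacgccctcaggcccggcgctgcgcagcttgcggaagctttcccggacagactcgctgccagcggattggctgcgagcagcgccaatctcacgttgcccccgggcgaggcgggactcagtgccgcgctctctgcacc
MLH3: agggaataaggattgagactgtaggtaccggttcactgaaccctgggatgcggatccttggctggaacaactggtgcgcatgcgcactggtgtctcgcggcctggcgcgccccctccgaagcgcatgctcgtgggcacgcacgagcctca

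E2F factors are transcription factors of the G1/S transition, and 4 words of their binding motif were searched on both strands: TTTCGCGC, TTTGGCGC, TTTCCCGC and TTTGCCGC. Windows ran from 250 bases before to 50 bases from the start on. Of the 6 genes, 4 held at least 1 of these words, against 3.33% of 27305 promoter windows in the table. Those windows were not limited to the measured genes or matched for base content. G and C made up 51% to 78% of the windows of the 6 genes. EXO1 had TTTCGCGC at positions 5 to 12 and MSH6 had TTTCCCGC at positions 4 to 11, counted from the start as 1. In MSH3, TTTGGCGC at positions -107 to -100 overlapped TTTCGCGC on the other strand at -103 to -96. PMS2 had TTTGCCGC at -43 to -36. Words of this kind were thus present both in genes that fell after induction (EXO1, MSH6) and in genes that rose (MSH3, PMS2), and PMS1 and MLH3 had none in this window. The CCAAT word was present in MSH6, PMS1 and PMS2, against 35.7% of all windows. The cell cycle homology words TTTGAA and TTCGAA (16.6% of windows) and the consensus half-site of p53 (6.54%) had no match in any of the 6 windows. A match describes letters in the window and not binding, and the first listed window of each gene was used. EXO1 had 2 listed windows and MSH6 had 4, and their E2F words lay in the first only. PMS2 had 2 listed windows, with TTTGCCGC in both.

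Induction divided the 6 genes. EXO1, MSH6, PMS1 and MLH3 fell, and PMS2 and MSH3 rose by a small amount. By limma's moderated test with Benjamini-Hochberg adjustment over all genes, 6 of 6 passed an adjusted p of 0.05, where 45.1% of all 18417 genes tested also passed. The 4 that fell compare with 24.6% of all genes called lower, and the 2 that rose with 20.6% called higher. At least 2-fold changes were called for 3 of the 6, all of them falls, against 13.2% of all genes in either direction and 6.77% lower. The arrays of the groups did not overlap for any of the 6, which was also true of 66.8% of all genes. The median log2 fold change was -1.005 over the 6 genes and 0.00 over all genes. In RNA from whole cultures, fewer cells that express a gene and less RNA per cell cannot be told apart.

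**Figure D1:**
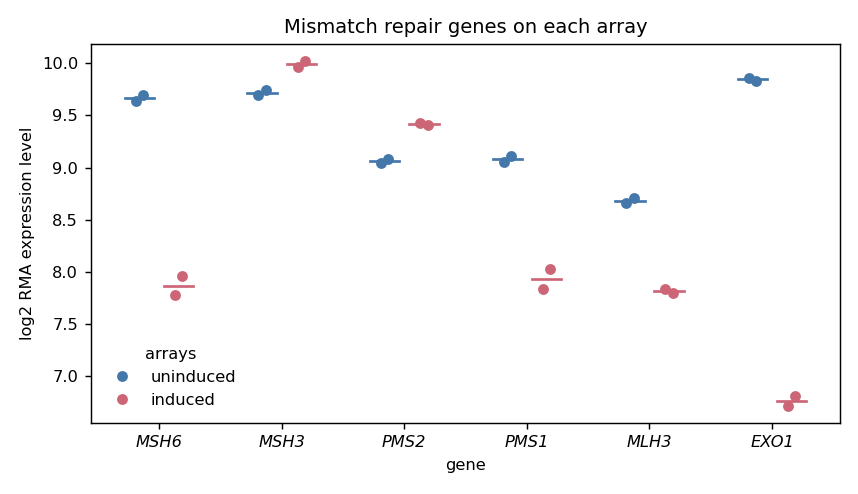
The 6 mismatch repair genes (x axis) are plotted by log2 RMA expression level (y axis) on each array, blue for uninduced and red for induced; points are arrays and bars are means of 2 arrays. The groups do not overlap for any of the 6 genes (66.8% of all genes), and EXO1 shows the largest gap between the groups, from 9.845 to 6.765; heights of different genes are not comparable.

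The mismatch-recognising genes moved in opposite directions. MSH6 (probe set 8041888) stood at 9.64 and 9.70 log2 units on the uninduced arrays and at 7.78 and 7.96 on the induced ones. Both induced arrays lay far below both uninduced ones. The gene fell 3.48-fold, with a log2 fold change of -1.80 (95% interval -2.02 to -1.58, SE 0.095, limma adjusted p = 5.4e-06). Of 18417 genes, 340 had a lower log2 fold change. MSH3 (probe set 8106633) read 9.70 and 9.74 uninduced against 9.96 and 10.02 induced. Its groups did not overlap either, but they were separated far less than those of MSH6. The log2 fold change was 0.27 (95% interval 0.08 to 0.46, SE 0.083, limma adjusted p = 0.0315), or 1.21-fold. That call ended when any of the 4 arrays was left out, with limma adjusted p-values of 0.179 and 0.14 without uninduced array 1 and 2, and 0.0528 and 0.0752 without induced array 1 and 2. Within each array, the log2 difference between MSH6 and MSH3 shifted by -2.07 after induction. Both induced arrays lay below both uninduced ones in this difference. An exact two-sided permutation test over the 6 possible assignments of 4 arrays gave p = 0.333, the smallest it can give.

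Among the MutL homologs, PMS1 and MLH3 fell and PMS2 rose. PMS1 (probe set 8047038), a MutL homolog whose role in repair is less defined, read 9.05 and 9.11 uninduced and 7.84 and 8.03 induced. It fell 2.21-fold, with a log2 fold change of -1.145 (95% interval -1.37 to -0.92, SE 0.096, limma adjusted p = 5.0e-05). MLH3 (probe set 7980246), best known for its part in meiotic crossing over, read 8.66 and 8.71 uninduced and 7.84 and 7.80 induced. The arrays of each group differed by 0.05 log2 units or less, and the groups were well apart. It fell 1.82-fold, with a log2 fold change of -0.865 (95% interval -1.06 to -0.67, SE 0.082, limma adjusted p = 9.3e-05). PMS2 (probe set 8138030), the endonuclease subunit, read 9.04 and 9.08 uninduced and 9.43 and 9.41 induced. Its log2 fold change was 0.36 (95% interval 0.17 to 0.55, SE 0.081, limma adjusted p = 0.00813), or 1.28-fold. Without uninduced array 1 or 2 the PMS2 call was lost (limma adjusted p = 0.0948 and 0.0772). Within arrays, PMS1 shifted by -1.505 and MLH3 by -1.225 relative to PMS2 (exact permutation p = 0.333 for each and 0.333 after Benjamini-Hochberg adjustment over the 3 pairs compared, the smallest this design can give).

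The PMS2 value is uncertain, because the human genome holds many near-identical PMS2 pseudogenes and transcripts from copies of this kind can reach the same probes. Whether they reached the probes of the PMS2 probe set was not tested. Another 8 probe sets were annotated to PMS2 together with its pseudogenes or other genes, at mean levels of 11.4 to 12.0 log2 units. In limma's fit over all 33297 rows, 0 of the 8 passed and 1 had an unadjusted p under 0.05; log2 fold changes ran from -0.09 to 0.23, and the 7 that named only PMS2 and its pseudogenes lay between -0.09 and -0.005. Pseudogenes with a probe set of their own differed from each other. PMS2P3 (probe set 8140311) went from 9.95 and 9.99 to 10.79 and 10.95, a log2 fold change of 0.90 (adjusted p = 0.00195 in limma's fit over all rows). PMS2P1 (probe set 8141490) went from 11.43 and 11.45 to 10.64 on both induced arrays, a log2 fold change of -0.80 (adjusted p = 0.00161). PMS2CL (probe set 8131444), a pseudogene derived from the end of PMS2, had a log2 fold change of 0.105 (95% interval -0.14 to 0.35, adjusted p = 0.489). Of 2 shared probe sets that name a pseudogene but not PMS2, 1 was called higher (8133275, log2 fold change 0.485) and the other had a log2 fold change of -0.085. None of the other 5 genes was named by a probe set of several genes.

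**Figure D2:**
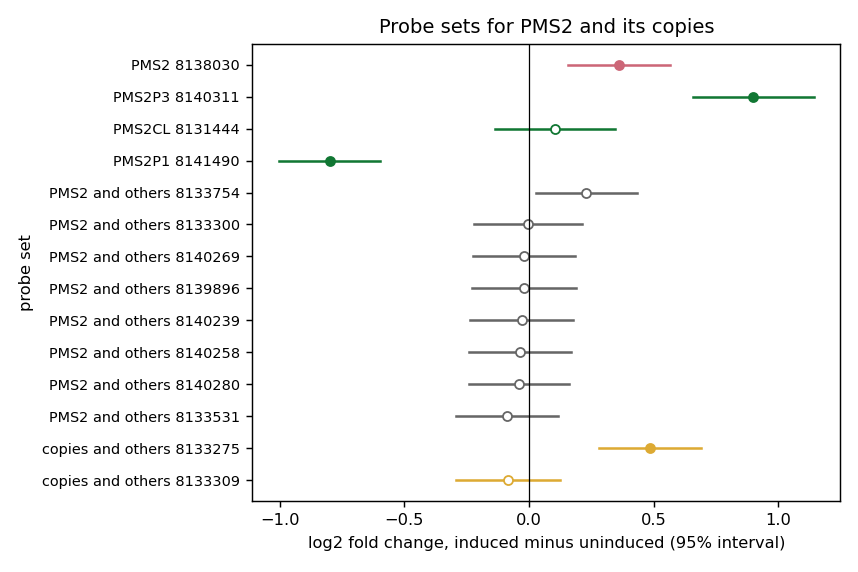
Log2 fold changes, induced minus uninduced (x axis), with 95% intervals from limma's fit over all rows are shown for each probe set (y axis) that names PMS2 or a pseudogene of it; filled points passed an adjusted p of 0.05. Red is PMS2 alone, green a pseudogene alone, grey PMS2 with other genes and yellow several genes that include a pseudogene but not PMS2. The PMS2 probe set lies at 0.36, PMS2P3 at 0.90 and PMS2P1 at -0.80, and the 8 shared probe sets that name PMS2 lie between -0.09 and 0.23.

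EXO1, the excision nuclease, fell furthest of the 6. Its probe set 7910997 read 9.86 and 9.83 log2 units uninduced and 6.72 and 6.81 induced. The level fell 8.46-fold, with a log2 fold change of -3.08 (95% interval -3.28 to -2.88, SE 0.084, limma adjusted p = 7.6e-07). Only 48 genes had a lower log2 fold change. No detection call was used, so whether the induced level was above the probe set's background was not tested. Of 3 other nucleases listed for the same RAD2 family, 2 were measured, FEN1 and GEN1. Both fell, with log2 fold changes of -2.16 (limma adjusted p = 1.8e-06, SE 0.087) and -3.455 (adjusted p = 8.5e-07, SE 0.11).

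**Figure D3:**
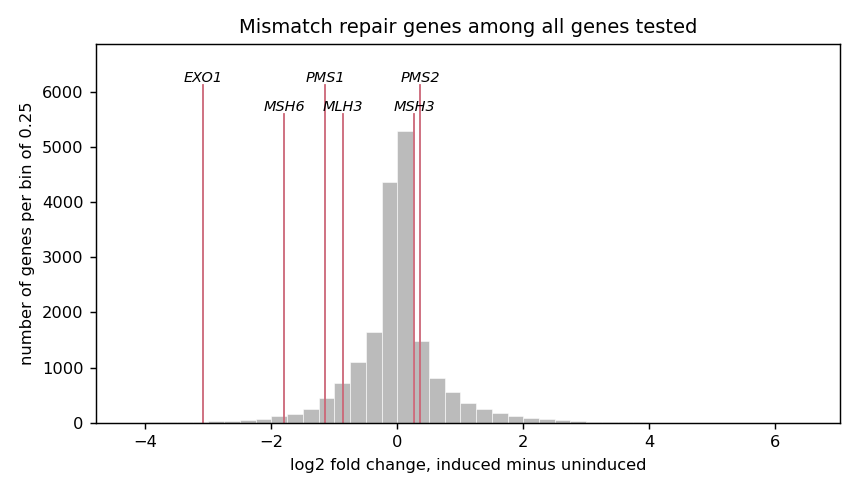
The histogram gives the number of genes (y axis) per bin of 0.25 log2 fold change, induced minus uninduced (x axis), over all 18417 genes; red lines mark the 6 mismatch repair genes. EXO1 at -3.08 and MSH6 at -1.80 lie in the sparse lower tail, whereas MSH3 at 0.27 and PMS2 at 0.36 lie beside the central peak.

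For the later steps, a list of 16 replication and repair factors was used, all measured. Of these, 11 fell, 3 rose and 2 did not pass limma's test, where 24.6% of all genes were called lower and 20.6% higher. The 16 had a median log2 fold change of -0.7725, against 0.00 for all genes. Both the 16 and the genes that fell include SSBP1, which acts in mitochondria. The counts and the median therefore do not cover the later steps alone. All 5 subunits of the loader of the sliding clamp fell, by different amounts. RFC3, a small subunit of the clamp loader, went from 9.84 and 10.04 to 7.33 and 7.31, a 6.15-fold fall (SE 0.096 on the log2 scale, limma adjusted p = 1.3e-06). RFC2 and RFC5, other small subunits, fell 5.01-fold and 4.32-fold. RFC4 and the large subunit RFC1 fell 1.83-fold and 1.53-fold. PCNA, the clamp itself, rose instead, from 11.19 and 11.13 to 11.79 and 11.71, or 1.51-fold (limma adjusted p = 0.000813).

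Subunits of polymerase delta, which fills the excised gap, did not move together. The accessory subunits POLD3 and POLD2 fell 4.35-fold and 3.08-fold, and the catalytic subunit POLD1 fell 1.73-fold. POLD4, the smallest subunit, had a log2 fold change of 0.435 (limma adjusted p = 0.00716, SE 0.096), a call that ended when any array was left out (adjusted p from 0.0521 to 0.113). LIG1, the replicative ligase, also had a log2 fold change of 0.435 (adjusted p = 0.00378, SE 0.084), and its call was lost without uninduced array 2 (adjusted p = 0.0736). The POLD1 call was lost without uninduced array 1 or 2 (adjusted p = 0.065 and 0.0529). Without uninduced array 2 the list had 1 riser, PCNA, in place of 3.

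Among the proteins that coat single-stranded DNA, RPA2 fell 3.10-fold and RPA1 1.37-fold. The RPA1 call was lost without uninduced array 1 (limma adjusted p = 0.0582). The smallest subunit, RPA3, had a log2 fold change of -0.225 (95% interval -0.43 to -0.02, limma adjusted p = 0.0688, and 0.036 without dim probe sets). RPA4 had one of -0.055 (limma adjusted p = 0.767). Its levels, 6.10 to 6.39, lay below 6.776, the 40th percentile of probe set levels, and whether it was detected was not tested. SSBP1, which binds single-stranded DNA in mitochondria, fell 1.69-fold.

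**Figure D4:**
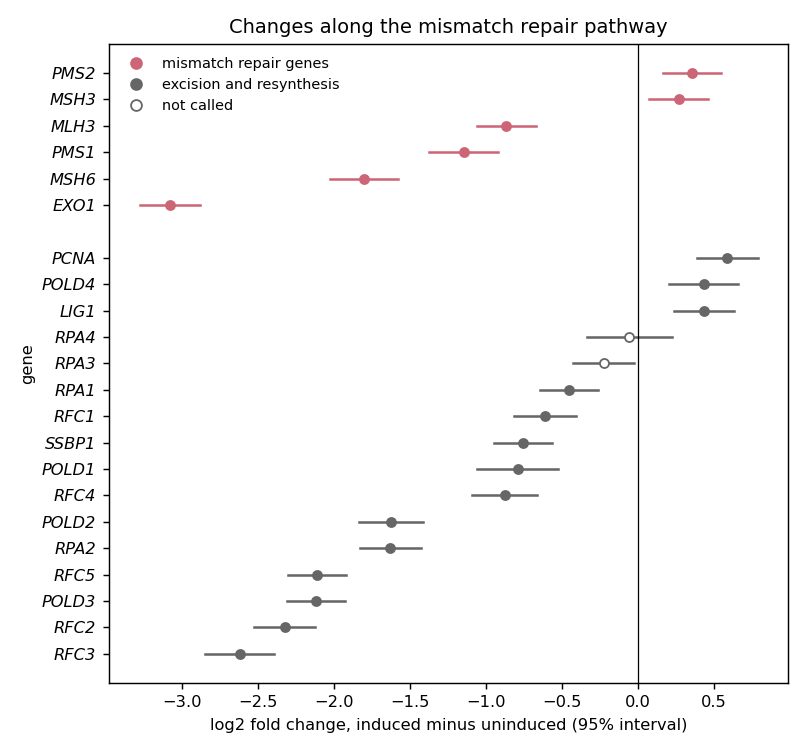
Log2 fold changes, induced minus uninduced (x axis), are shown with limma's 95% intervals, 1 gene per line (y axis). Red marks the 6 mismatch repair genes and grey the 16 genes listed for excision and resynthesis, with mitochondrial SSBP1 among them. Open points did not pass an adjusted p of 0.05. Changes run from -3.08 for EXO1 to 0.36 for PMS2 in the first set, and from -2.62 for RFC3 to 0.59 for PCNA in the second.

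Of 5 other proteins tied to mismatch repair that were measured, 4 fell and 1 did not pass, where 24.6% of all genes were called lower. MCM8, a helicase that works with MCM9, had a log2 fold change of -3.08 (limma adjusted p = 1.1e-06, SE 0.11), and CHAF1A, a subunit of the chromatin assembly factor CAF-1, one of -1.83 (adjusted p = 3.1e-05, SE 0.14). MCM9 itself had one of 0.215 (adjusted p = 0.199, SE 0.12). FAN1, a nuclease that binds MutL homologs, had a log2 fold change of -0.625 (adjusted p = 0.00199), a call lost without either induced array (adjusted p = 0.0841 and 0.0716). SETD2, which writes the histone mark that MSH6 binds, had one of -0.435 (adjusted p = 0.0135), lost without uninduced array 2 or either induced array (adjusted p from 0.113 to 0.173). Without either induced array, 2 of the 5 were called lower in place of 4. MSH4, a meiotic MutS homolog, had a log2 fold change of -0.01 (95% interval -0.20 to 0.18, limma adjusted p = 0.943), with levels of 6.59 and 6.63 uninduced and 6.62 and 6.58 induced. These levels lay below 6.776, the 40th percentile of probe set levels, and whether MSH4 was detected was not tested.

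Replication genes give a scale for these falls. All 13 origin and helicase genes listed fell, and 11 fell at least 2-fold, against 24.6% and 6.77% of all genes. The median log2 fold change of the 13 was -2.115. The origin licensing factor CDC6 fell 10.2-fold and MCM3, a subunit of the replicative helicase, 7.92-fold. The fall of EXO1 lay between these, that of MSH6 was smaller than the median of the list, and MSH3 and PMS2 rose while every gene of that list fell. GINS4, the member with the smallest fall (log2 fold change -0.38), lost its call without induced array 1 or either uninduced array (limma adjusted p from 0.0521 to 0.154). Base excision repair, which removes damaged single bases, was also listed: of 15 genes, 5 fell, 2 rose and 8 did not pass, so 7 of 15 were called where 45.1% of all genes were. The glycosylase gene NEIL3 fell 6.84-fold and TDG, which removes thymine from G-T mismatches, rose 3.75-fold. POLB, the gap-filling polymerase of this pathway and the other riser, lost its call without uninduced array 2 (limma adjusted p = 0.0555). No difference between these lists was tested.

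Genes that adjoin the members were set beside them. The nearest protein-coding genes on either side in the RefSeq table gave 7 measured genes; other neighbours were not analysed here. ORMDL1, a regulator of sphingolipid synthesis, starts 111 bases from PMS1 on the opposite strand, pointing away from it. It read 8.66 and 8.67 uninduced and 7.83 and 8.12 induced, with a log2 fold change of -0.69 (limma adjusted p = 0.00147, SE 0.11) beside -1.145 for PMS1. That call was lost without uninduced array 1 or 2 (adjusted p = 0.0747 and 0.0777). AKAP19, on the far side of PMS1, rose 2.62-fold.

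ACYP1, an acylphosphatase gene upstream of MLH3 on the same strand, fell 3.13-fold, from 8.65 and 8.50 to 6.84 and 7.02, whereas EIF2B2 on the other side had a log2 fold change of 0.215 (limma adjusted p = 0.0754). EIF2B2 was called higher with median centring, with an intensity trend and robust prior, and without dim probe sets (limma adjusted p = 0.0359, 0.00515 and 0.0398). FBXO11, an F-box gene whose transcription runs towards MSH6, fell 1.93-fold (SE 0.088 on the log2 scale, adjusted p = 8.4e-05). RASGRF2, downstream of MSH3, rose 3.29-fold, more than MSH3 itself. WDR64, upstream of EXO1, had levels of 3.72 to 3.99 on the 4 arrays and a log2 fold change of 0.075 (adjusted p = 0.642). Of the 7 neighbours, 3 fell, 2 rose and 2 did not pass, where 24.6% of all genes were called lower and 20.6% higher.

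For each member, the genes with the most similar profile over the 4 arrays were found by the Euclidean distance between mean-centred log2 values. They were SUPT7L and NECAB3 for MSH3 (distances 0.0087 and 0.01 log2 units), HMGN3 and NTAQ1 for MSH6 (0.0296 and 0.03) and RMC1 and TIMM8B for PMS2 (0.0087 and 0.0141). For PMS1 they were SMG1 and HAT1 (0.0245 and 0.026), and for MLH3 DNAH5 and NME6 (0.0224 and 0.0316). The nearest profiles to EXO1, of DDIAS and SASS6, lay at 0.106 and 0.107. The nearest profile to EXO1 was thus farther away than those to the other 5 genes, over only 4 arrays in 2 groups. Fewer genes had a log2 fold change near that of EXO1 (23 from -3.25 to -3.0) than near those of MSH3 and PMS2 (1487 from 0.25 to 0.5). The distances were not adjusted for this.

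Genes known to respond to p53 changed on these arrays, CDKN1A rising 10.8-fold and MDM2 7.39-fold. Of 4 genes listed for the identity of the line, KRT18 and VIM were bright in both groups (10.98 to 12.75 log2 units), and KRT8 rose 2.21-fold. VIM had a log2 fold change of -0.40, a call lost without uninduced array 1 or 2, where it was -0.43 and -0.37. CDH1 was dim in both groups, between 5.82 and 5.94, below the 40th percentile of probe set levels (6.776). Of 7 blood cell markers, 2 passed the test: ITGAM, at 2.52-fold, and CD3E, with a log2 fold change of 0.26 that lost its call when any array was left out. Of all genes, 45.1% passed the same test. The sum of the log2 values of the 7 blood cell markers ranged from 40.33 to 41.08 uninduced and from 41.46 to 42.60 induced. ITGAM had by far the largest log2 fold change of the 7, 1.335. CD3E, PTPRC and CD14 had 0.26, 0.13 and 0.06, and MS4A1, LYZ and HBB had -0.125, -0.165 and -0.17. PTPRC, which marks all white blood cells, read between 3.92 and 4.20, and no marker was at 0, since RMA values do not reach it. By limma, 0 of 8 markers of fibroblasts and endothelium passed, and 0 had an unadjusted p under 0.05; CDH5 and VWF had the largest log2 differences, 0.195 and 0.19. With each array centred on its median CDH5 passed, and without induced array 2 PECAM1 passed (limma adjusted p = 0.049 and 0.0384). The sum of the log2 values of the 8 was 51.07 to 51.45 uninduced and 51.17 to 52.22 induced. The part of any such cells in the results was not tested.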

How the data were processed

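Total RNA was labelled as biotinylated cDNA and hybridised to an Affymetrix array, per the labels' protocols. The authors deposited log2 expression levels, 1 per probe set and array, made with Affymetrix Expression Console and RMA per the submitters' processing notes, with versions, settings and genome build not given in the sources used here. RMA equalises the probe intensity distributions of arrays, which hides any shift common to all transcripts, and it understates folds of dim genes. Array medians were 7.26 to 7.33.

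Of 33297 rows, 19460 had 1 gene symbol, 1754 several and 12083 none; gene IDs of 19429 were found in RefSeq's table (GRCh38.p14), used for names and order. The brightest probe set stood for a gene (18417 genes). Limma 3.58.1 in R 4.3.3 fitted induced against uninduced arrays across all genes with lmFit and eBayes, using two-sided tests and no covariate; residual degrees of freedom were 2, and 7.20 with the prior. Calls needed a Benjamini-Hochberg adjusted p under 0.05. SDs between the 2 arrays of a group had a median of 0.057 uninduced and 0.085 induced. The fit was also run on simulated data with independent noise and far fewer changed genes than were called here. That setting differs from these arrays, so no conclusion is drawn from it. Python 3.11.15 made tables and figures.

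The members and lists were chosen with earlier results of these data known. Named were the members, their adjoining genes and PMS2 copies, all excision and resynthesis genes, the 2 largest changes of each other list, and the 2 nearest profiles per member; MCM9, FAN1, SETD2, GINS4, POLB, PECAM1, PTPRC, KRT18 and CDH1 were added after their values were seen. Alternatives were quantile normalization again, median centring, dropping probe sets dimmer than the 40th percentile, averaging probe sets, testing all rows, an intensity trend with a robust prior, treat against a fold of 1.2, the replicate block and leaving out each array.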

Additional observations from a re-analysis of the deposited data

Results flagged for a closer look

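A signal appeared in a probe set that the comparison of genes did not use. Probe set 8133275, annotated to POM121C, POM121 and the pseudogene PMS2P3 together, read 11.06 on both uninduced arrays and 11.56 and 11.53 on the induced ones, a shift of 0.485 on the log2 scale (adjusted p = 0.00838 in limma's fit over all rows, SE 0.079). Which of the 3 genes gave the difference was not tested. Outlying arrays were not looked for, since each group has 2.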

How the results depend on the processing

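The falls of EXO1, MSH6, PMS1 and MLH3 kept their direction and call in all 12 alternatives run, with log2 fold changes of -3.125 to -3.03, -1.89 to -1.71, -1.24 to -1.05 and -0.89 to -0.789. MSH3 stayed higher (0.24 to 0.32) but was called in 6 of the 12: its 0.27 lost the call with all rows tested (adjusted p = 0.0629) and with treat against a fold of 1.2 (adjusted p = 1), and its value was 0.24 to 0.30 when an array was left out. PMS2 stayed higher (0.34 to 0.41) and was called in 9; its 0.36 lost the call with treat (adjusted p = 0.36), and it was 0.34 to 0.38 with an array left out. The count of mismatch repair genes called higher was 1 with all rows tested, 0 with treat (0 at an unadjusted p under 0.05 in that test) and 0 to 1 with an array left out. With treat, 2977 genes were called lower, 2502 higher, and 1 of the excision and resynthesis genes higher. With an array left out these counts were 2643 to 3785, 2316 to 3119, and 1 to 2. Treat asks for a minimum size, and fewer arrays leave fewer degrees of freedom. A member's log2 fold change cannot move when dim probe sets are dropped, probe sets are averaged or all rows are tested. The intensity trend, treat and the replicate block cannot move it either. In those settings only the call could change, so a kept direction there carries no information. With the replicate block, 4232 genes were called lower and 3588 higher, and all 6 mismatch repair genes kept their call (EXO1 -3.08, adjusted p = 0.00359); same-numbered arrays deviated together at r = 0.22 over genes, and the labels do not say what a number shares. Precision is limited by 2 arrays a group and no detection call was used.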
